A study of Arabidopsis thaliana with 76 samples.

Results

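At the end of the night, *Arabidopsis* seedlings that lack the starch synthases SS3 and SS4 were compared with wild-type (WT) seedlings. The members are the 2 *ss3/4* and the 2 WT libraries from constant 17°C at ZT0, the moment of lights on, so 4 of the 76 libraries of the series. They were chosen by the genotype, temperature, and time point in the sample labels, and no measured value was used. All seedlings were of the Col0 ecotype and grew at 17°C in short days of 8 h light and 16 h dark at 170 µmol of light. Each library came from a pool of 25 seedlings. The *ss3/4* seedlings carry mutations in both *SS3* and *SS4*, and the labels name no allele. The same study sampled 3 other starch mutants at ZT0 with 2 libraries each, all in Col0. These are *ss4-1*, with a lesion in *SS4* alone, *pgm*, with a lesion in plastidial phosphoglucomutase, and *ss3/4/pgm*, which combines the lesions. The *ss3/4* and WT genotypes were also sampled at ZT2, 2 h into the light. The labels do not say that the 2 replicates of a group are separate cultures, so p-values measure the spread between these samples, which may be technical. Whole seedlings hold many cell types, and fewer cells of a type cannot be told apart from less RNA per cell.

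Leaves store part of the carbon fixed by day as starch in the chloroplast and break it down at night to feed respiration and growth. SS3 and SS4 extend the glucan chains of starch, SS4 also starts new granules, and plants lacking both make almost no starch, although ADP-glucose, the building block, is still made. Phosphoglucomutase acts earlier, and without it no ADP-glucose is made from photosynthate. Plants with too little starch run out of sugar before the end of the night, and genes for catabolism of amino acids, lipids, and cell walls are then induced.

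The question of the comparison is how the transcriptome of *ss3/4* differs from that of WT when the night ends, before any light is received. It differed widely. Of 20130 genes tested, 6117 (30.4%) were overexpressed and 5651 (28.1%) were under-expressed in *ss3/4* (edgeR's quasi-likelihood test, Benjamini-Hochberg adjusted p under 0.05). A difference of at least 2-fold was found for 2113 overexpressed genes (10.5%) and 2745 under-expressed genes (13.6%). Both *ss3/4* libraries lay above all 16 WT libraries of the day course at 17°C for 5005 genes (24.9%), and below all of them for 4437 (22%). These shares are the background against which each group of genes is read below. Values per library are CPM, each library's count scaled to its depth, after TMM normalization over all 44 libraries at 17°C, and fold changes are on the log2 scale from a fit of 16 libraries. A CPM value is not scaled by gene length, so it compares libraries and not genes.

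Among the genes that moved most are some whose upstream sequence holds a G-box (CACGTG), the core bound by many bZIP and bHLH factors. The 130 bases before the annotated gene start are given for 3 genes with large rises and 3 iron genes that fell, with the G-box in capitals and all else in lower case (RefSeq sequence and gene starts, TAIR10.1, given 5′ to 3′ on the strand of the gene). They were chosen after their values were seen, because they hold a G-box, to show the sequence beside the values that follow. *AT5G39520*, *AT4G25580*, and *PER1* rose, and *bHLH38*, *BHLH100*, and *OPT3* fell.
AT5G39520 (chr5:15825567-15825696, minus strand, G-box from −39): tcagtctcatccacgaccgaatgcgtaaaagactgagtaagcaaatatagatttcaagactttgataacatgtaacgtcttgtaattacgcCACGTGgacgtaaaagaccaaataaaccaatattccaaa
AT4G25580 (chr4:13056053-13056182, plus strand, G-box from −50): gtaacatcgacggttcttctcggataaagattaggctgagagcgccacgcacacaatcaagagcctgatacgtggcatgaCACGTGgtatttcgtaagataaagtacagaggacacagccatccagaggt
PER1 (chr1:17780299-17780428, plus strand, G-box from −48): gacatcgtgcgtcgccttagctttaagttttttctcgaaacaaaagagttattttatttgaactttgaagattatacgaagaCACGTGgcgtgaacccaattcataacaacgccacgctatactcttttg
bHLH38 (chr3:21085246-21085375, minus strand, G-box from −97): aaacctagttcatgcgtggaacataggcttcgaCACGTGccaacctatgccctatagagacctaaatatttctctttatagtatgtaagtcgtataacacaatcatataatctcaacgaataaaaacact
BHLH100 (chr2:17199455-17199584, minus strand, G-box from −91): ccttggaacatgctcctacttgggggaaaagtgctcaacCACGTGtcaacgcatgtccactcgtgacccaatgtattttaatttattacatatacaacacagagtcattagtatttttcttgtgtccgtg
OPT3 (chr4:9250344-9250473, minus strand, G-box from −78): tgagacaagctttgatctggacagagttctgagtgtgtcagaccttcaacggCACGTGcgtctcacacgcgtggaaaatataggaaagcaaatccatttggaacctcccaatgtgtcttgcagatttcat
Positions count back from the gene start. In windows of 250 bases before the start, searched on both strands, the G-box was found in 7.349% of the 19949 promoters scanned. It was found in 10.04% of those of genes overexpressed at least 2-fold and in 6.978% of those of genes under-expressed at least 2-fold. It was found in 8 of 19 windows (42.11%) of the clock list described below. In the iron list it was in 6 of 16 (37.5%), that of *FER4*, which rose, included, and in the heat shock list in 6 of 26 (23.08%). Of the other lists scanned, sugar starvation held it in 3 of 29 (10.34%) and glucosinolate synthesis in 2 of 16 (12.5%). Cell cycle (0 of 13) and *ATG8* (0 of 9) held none. Other motifs were scanned too, such as the evening element (AAAATATCT), in 6 of 19 clock windows (31.58%, against 2.426% of all). Site II (TGGGCC) was in 10 of 26 heat shock windows (38.46%, against 16.43% of all). The heat shock element, of alternating GAA and TTC units, was in 5 of the 26 (19.23%, against 0.4361% of all). A match is a description of the letters and not a binding site.

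The labels were first checked against the targeted genes. *SS3* had 24.8 and 28.4 CPM in *ss3/4* against 109 and 101 CPM in WT, a log2 fold change of −1.99 (SE 0.12, adjusted p = 1.65e-10). It was at 101 and 109 CPM in *ss4-1* and at 96.9 and 81.2 CPM in *pgm*, so the low level was seen in the lines labelled with *ss3*, *ss3/4/pgm* included (25.2 and 31.8 CPM). *SS4* transcript did not mark the genotype, with 61.7 and 55.6 CPM in *ss3/4* and 63.4 and 62.9 CPM in WT (adjusted p = 0.387). *PGM* was at 76.8 and 80 CPM in *ss3/4*, near the 96.4 CPM of both WT libraries, and at 10.4 and 13.2 CPM in *pgm*. Its log2 fold change of −0.31 (SE 0.10) against WT lost significance without WT replicate 2, without *ss3/4* replicate 1, or with a replicate block in a fit of the 4 libraries alone (adjusted p = 0.0735).

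The 4 libraries held 7862429 to 11823418 counts. The *ss3/4* replicates were less alike than the WT replicates, with 239 genes (1.19% of those tested) at least 2-fold apart against 29 genes in WT. The chloroplast genome took 0.307% and 1.13% of the counts of *ss3/4* replicates 1 and 2, against 0.784% and 0.677% in WT. Library kit and sequencing centre are not assigned to libraries in the labels, so they cannot be told apart from genotype. Root markers, as a list of 9 genes, summed to 1384 and 1577 CPM in *ss3/4* and 1911 and 1877 CPM in WT, with 5 of 9 lower, and most of the sum was *PYK10*. None of the 9 was at 0 in both libraries of either genotype.

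Genes of sugar starvation rose together. All 29 members tested of a list of known dark- and starvation-induced genes were overexpressed, 25 of them at least 2-fold, with a median log2 fold change of 2.87, against a median of 0.01 over all genes. Of these, 27 were above every WT library of the day course. *BCAT-2*, which starts the breakdown of branched-chain amino acids, had 712 and 860 CPM in *ss3/4* and 21.4 and 13.1 CPM in WT (log2 fold change 5.52, SE 0.18, adjusted p = 9.39e-14). The highest WT library of the day, at ZT12, reached 62.6 CPM, so the ZT0 level of *ss3/4* was far above WT at every time point sampled. *DIN4*, a subunit of the dehydrogenase complex that acts next in this pathway, had 373 and 469 CPM against 39.2 and 38.1 CPM in WT (3.44, SE 0.12). *MCCA* and *IVD*, which degrade leucine further, rose by 3.62 (SE 0.16) and 3.03 (SE 0.12).

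*ASN1*, the asparagine synthetase that stores nitrogen when carbon is short, had 2524 and 3935 CPM in *ss3/4* and 93.5 and 63.3 CPM in WT (5.37, SE 0.25). *SEN1*, a marker of darkness and senescence, had 1973 and 2613 CPM against 75.7 and 50.8 CPM (5.18, SE 0.23). In TPM, where length is divided out so that genes can be compared, *SEN1* stood at rank 11 of the nuclear genes in *ss3/4* (2267 and 2960 TPM) and at rank 2123 in WT (106 and 69.3 TPM). The list as a whole held 1.12% and 1.42% of the TPM of the nuclear genes ranked in *ss3/4*, against 0.209% and 0.169% in WT. Enzymes that open other amino acids to respiration rose as well. *ERD5*, the proline dehydrogenase, rose by 3.69 (SE 0.17), the lysine-degrading enzyme of *AT4G33150* by 3.97 (SE 0.19), and the glutamate dehydrogenase *GDH1* by 1.89 (SE 0.13).

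The 9 *ATG8* genes, whose proteins coat the autophagosome, were all overexpressed, with a median of 1.08. *ATG8B* rose most, from 23.4 and 21.1 CPM in WT to 106 and 99.1 CPM in *ss3/4* (2.20, SE 0.12). *ATG8F*, with 289 and 298 CPM against 117 and 116 CPM, rose by 1.33 (SE 0.10). The member that moved least was *ATG8H*, at 0.41 (SE 0.14, adjusted p = 0.0156).

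**Figure D1:**
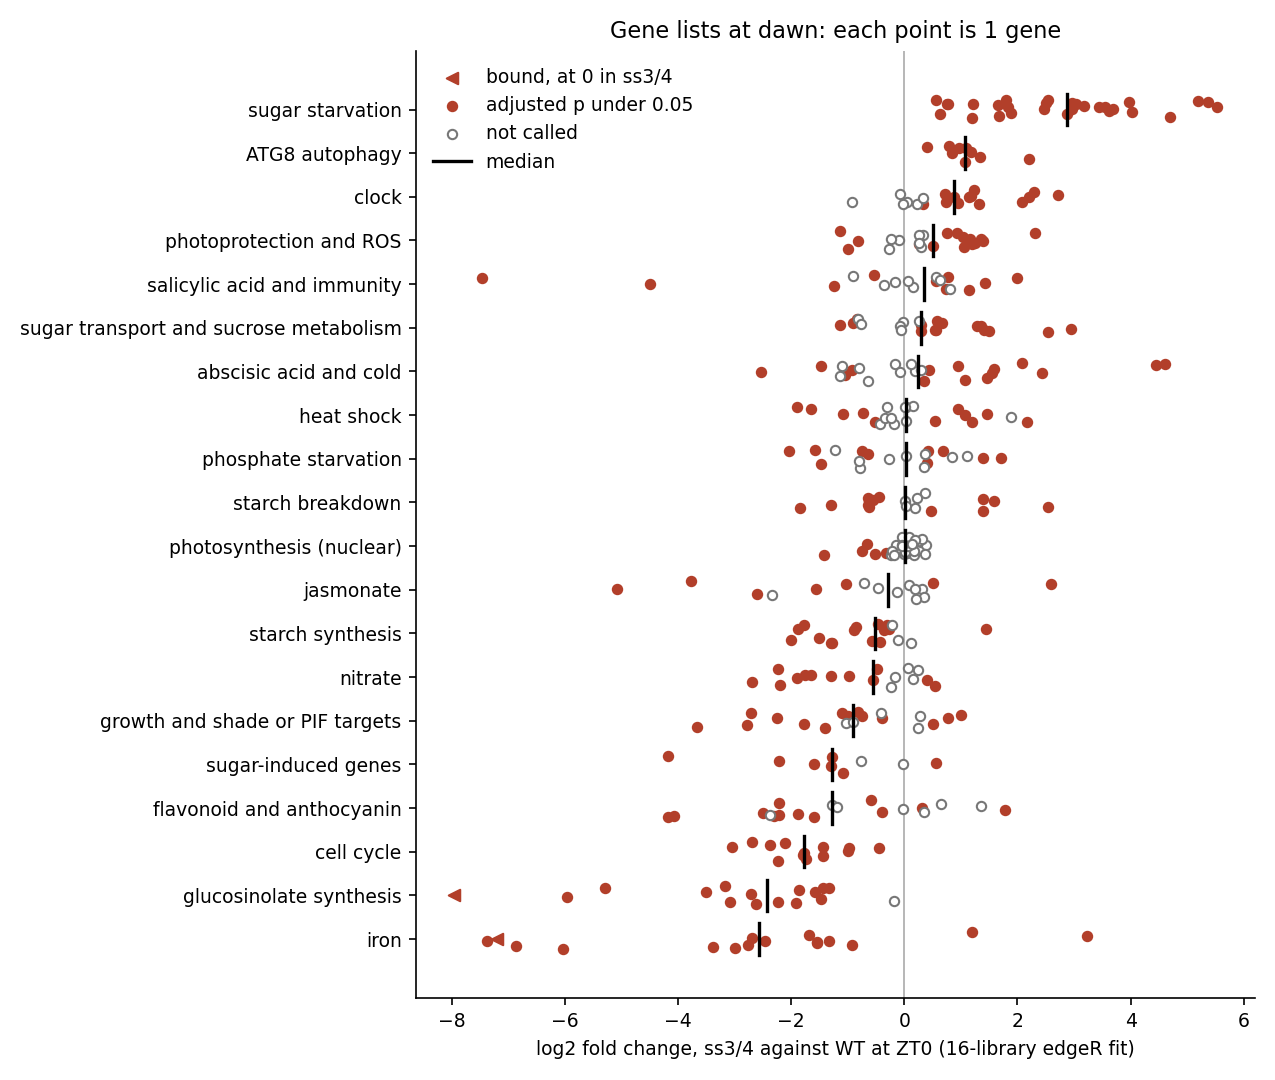
Log2 fold change of *ss3/4* against WT at ZT0 for every member of the gene lists, 1 row per list, with 1 point per gene, the list median, and triangles for genes at 0 in *ss3/4* at their bound. All sugar starvation and *ATG8* genes lie to the right of 0, all cell cycle genes to the left, and the median over all genes is 0.01.

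The 12 largest rises, taken among genes with a mean of at least 5 CPM in *ss3/4*, were headed by *MIOX4*, which oxidizes *myo*-inositol. It had 529 and 680 CPM in *ss3/4* and 1.6 and 1.62 CPM in WT (8.53, SE 0.23, adjusted p = 6.92e-15), and no WT library of the day was above 13.2 CPM. *AT1G19540*, an NmrA-like protein, had the smallest p, with 277 and 289 CPM against 5.72 and 4.68 CPM (5.77, SE 0.13, adjusted p = 3.45e-16). *GLYI7*, of the glyoxalase I family, had 83.3 and 83.5 CPM against 1.37 and 0.955 CPM (6.16, SE 0.21). For these 3 genes the spread within a genotype was small beside the difference.

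Of the genes with a G-box shown above, *AT5G39520* had 18.9 and 26.9 CPM in *ss3/4* and 0.343 and 0.191 CPM in WT (6.35, SE 0.39). *AT4G25580*, a CAP160 protein, had 151 and 233 CPM against 4.47 and 2.77 CPM (5.74, SE 0.25). *PER1*, a peroxiredoxin of seeds, had 8.52 and 3.51 CPM against 1 count in each WT library, a ratio of 62.6 (95% counting interval 16.9 to 524). Its call was lost without WT replicate 2 or without *ss3/4* replicate 1. *AT2G21820*, annotated as a seed maturation protein, had 12.3 and 20.1 CPM against 0.229 and 0.382 CPM (5.60, SE 0.40). The storage protein genes of seeds were near 0, summing to 1.84 and 0.153 CPM in *ss3/4* and to 0.114 and 0.0955 CPM in WT. The part of seed material in these rises was not tested further. *RL5*, a MYB-like gene, rose from 0.114 and 0.955 CPM to 30.3 and 34.7 CPM (5.78, SE 0.35).

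The other 4 of the 12 differed between the *ss3/4* replicates, and replicate 2 was the higher each time. *AIG1*, named for its induction by a bacterial effector, had 20.9 and 54.8 CPM in *ss3/4* against 0.343 and 0 CPM in WT, a ratio of 216 (95% counting interval 73.7 to 1052). *CML41*, a calmodulin-like gene, had 19 and 45.5 CPM against 0.458 and 0.668 CPM (5.75, SE 0.60). *AT1G21520* had 11.4 and 138 CPM against 1.26 and 0.764 CPM (6.18, SE 0.95, and 3.47 without *ss3/4* replicate 2). Its neighbour on the chromosome, *AT1G21525*, annotated as a pseudogene, had 1.55 and 37.6 CPM against 0.343 and 0.286 CPM. Without *ss3/4* replicate 2 the log2 fold change of *AT1G21525* was 2.22, in place of 5.83, and was no longer significant (adjusted p = 0.0571).

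Of 19 clock genes tested, 13 were overexpressed and none was under-expressed (0 to 1 with 1 library left out), with a median of 0.88. *RVE1*, a MYB factor that raises auxin synthesis, had 1014 and 1082 CPM in *ss3/4* and 256 and 241 CPM in WT (2.07, SE 0.11), above the WT day maximum of 263 CPM. *PRR7*, a repressor expressed in the morning, had 66.4 and 71.9 CPM against 16.4 and 13.7 CPM (2.20, SE 0.13). *ZTL*, an F-box photoreceptor, rose by 1.19 (SE 0.10). The core dawn genes did not pass the test. *CCA1* had 632 and 616 CPM in *ss3/4* and 607 and 591 CPM in WT (0.06, SE 0.10), and *LHY* had 1216 and 1248 CPM against 1055 and 1053 CPM (0.22, SE 0.13, adjusted p = 0.145).

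Genes of starch synthesis were lower as a group, with 14 of 18 under-expressed, 1 overexpressed, and a median of −0.52. Besides *SS3*, these included *GBSS1*, the amylose synthase, with 78.3 and 61.8 CPM in *ss3/4* against 228 and 248 CPM in WT (−1.77, SE 0.13). The debranching subunit *DBE1* (ISA2) had 9.97 and 10.8 CPM against 38.9 and 36.8 CPM (−1.88, SE 0.12). *ISA3*, a debranching enzyme that serves starch breakdown, was the 1 that rose, by 1.45 (SE 0.12). Genes of starch breakdown split, with 5 of 18 overexpressed and 8 under-expressed. Of the rises, 4 were of β-amylase genes. *BAM4* had 123 and 130 CPM against 20.8 and 22.2 CPM (2.54, SE 0.11), and *BAM1*, *CT-BMY* (BAM3), and *BMY3* (BAM9) rose by 1.58, 1.39, and 1.39. The plastidial phosphorylase *PHS1* had 16.8 and 14.3 CPM against 56 and 56 CPM (−1.84, SE 0.14).

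Of 21 genes of sugar transport and sucrose metabolism, 12 were overexpressed and 3 were under-expressed. The vacuolar invertase *ATBETAFRUCT4* had 1178 and 1438 CPM in *ss3/4* and 162 and 178 CPM in WT (2.94, SE 0.15). *STP1*, a monosaccharide importer, rose by 2.54 (SE 0.23). *SUC2*, which loads sucrose into the phloem, had 51.6 and 50.8 CPM against 120 and 105 CPM (−1.14, SE 0.12). *SUC2* is also a marker of companion cells, and the other vascular marker, *HB-8*, had 35 and 35.7 CPM against 41.7 and 39.1 CPM and did not pass the test. Of 9 genes known to be induced by sugar, 6 were under-expressed and 1 was overexpressed, with a median of −1.27. Among them *EXO*, a cell wall protein gene, fell by 1.27 (SE 0.16) and *TPS5* by 1.08 (SE 0.14).

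**Figure D2:**
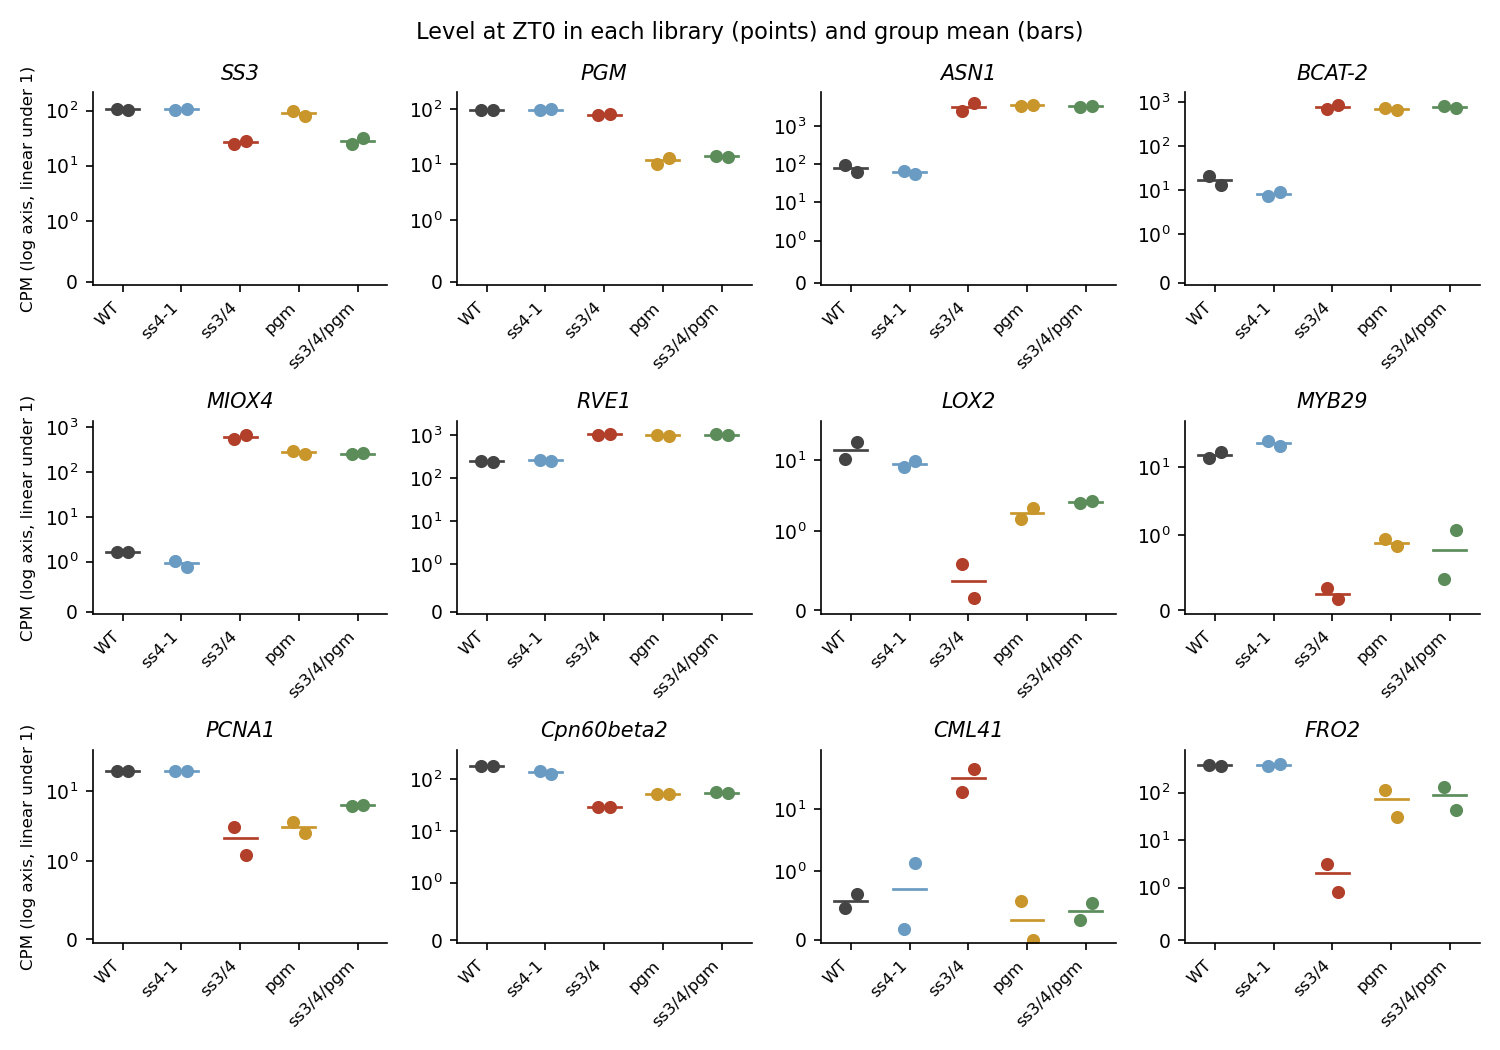
CPM at ZT0 for 12 genes in WT, *ss4-1*, *ss3/4*, *pgm*, and *ss3/4/pgm*, 1 panel per gene and 1 point per library, on axes that are linear under 1 and logarithmic above. *CML41* is high in *ss3/4* only among the 10 libraries shown (19 and 45.5 CPM), *BCAT-2* and *RVE1* are high in all 3 mutants with low *SS3* or *PGM*, and *FRO2* is lower in *ss3/4* than in any other library.

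Of the 16 genes of the iron list, 14 were under-expressed and 2 were overexpressed, with a median of −2.57. The roots of *Arabidopsis* reduce iron with FRO2 and import it with IRT1, under the bHLH factors FIT, bHLH38, bHLH39, BHLH100, and BHLH101. *IRT1* had 8.42 and 2.44 CPM in *ss3/4* and 380 and 389 CPM in WT (−6.03, SE 0.35, adjusted p = 9.64e-11). *FRO2* had 3.19 and 0.916 CPM against 385 and 374 CPM (−7.38, SE 0.59). No WT library of the day was below 82.8 CPM for *IRT1* or below 40.6 CPM for *FRO2*. At no sampled time did WT come near the ZT0 level of *ss3/4*.

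The regulators fell too. *BHLH100*, with 32.9 and 67.4 CPM in WT, had no count in either *ss3/4* library, at least 147-fold lower when 3 counts per library are taken as the floor. *bHLH38* had 0.774 and 0.153 CPM against 42.7 and 83.2 CPM (−6.87, SE 0.56). *FRU* (FIT), the partner of these factors, fell from 60.9 and 68.2 CPM to 24.1 and 20.3 CPM (−1.54, SE 0.15). *OPT3*, a transporter of the phloem, had 64 and 56.6 CPM against 282 and 378 CPM (−2.46, SE 0.18), and *NAS4*, which makes the iron chelator nicotianamine, fell by 2.69 (SE 0.15).

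Both genes of the list that rose encode ferritin, the plastid store of iron. *FER1* had 302 and 357 CPM in *ss3/4* and 45.1 and 25.9 CPM in WT (3.22, SE 0.24), and *FER4* had 54.3 and 58 CPM against 28.9 and 20.4 CPM (1.19, SE 0.19). The third ferritin gene, *FER3*, fell by 0.92 (SE 0.17). Genes of coumarin and iron uptake were also among the 12 largest falls over all genes. *CYP82C4*, which acts on coumarins secreted under iron deficiency, had 0.581 and 0 CPM against 373 and 380 CPM (−10.00, SE 0.82). The oxygenase gene *AT3G12900* had no count in *ss3/4* and 73.6 and 62.5 CPM in WT, at least 192-fold lower. The defensin-like *AT1G13609* had 0.387 and 0 CPM against 90.3 and 223 CPM (−9.30, SE 0.69). *AT2G30766* and the overlapping *CYP71A13*, with 1 and 0 counts in *ss3/4* each, cannot be separated fully by counting. Root markers were lower by the values given above, and in the list *LRX1*, *EXPA7*, and *SHV2* of root hairs fell by 2.77, 1.52, and 1.56, the call of *EXPA7* being lost without *ss3/4* replicate 1. Their part in the iron result was not tested.

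**Figure D3:**
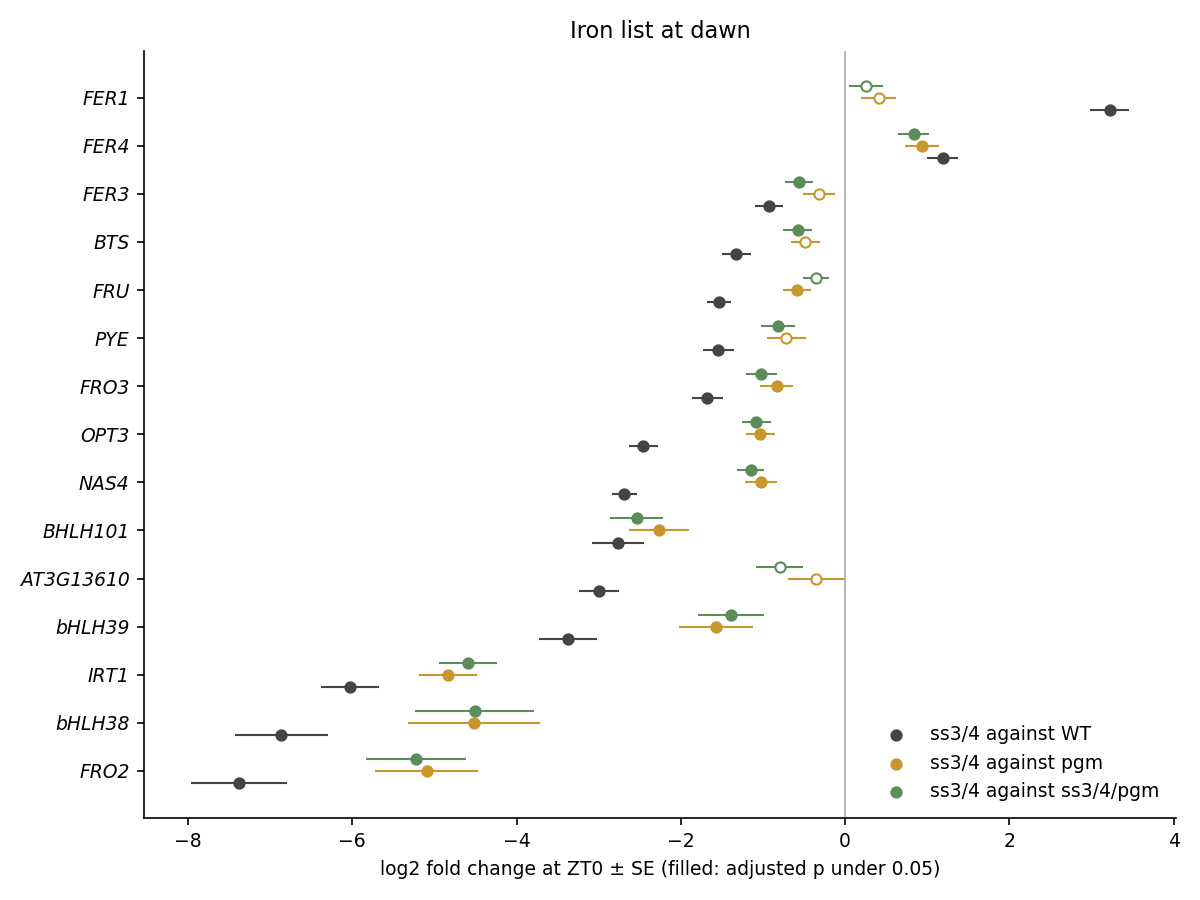
Log2 fold change with its SE for the iron genes other than *BHLH100*, for *ss3/4* against WT, against *pgm*, and against *ss3/4/pgm* at ZT0. *FRO2*, *IRT1*, and *bHLH38* lie between −4.51 and −7.38 in all 3 contrasts, while *FER1* is at 3.22 against WT and did not pass the test in the other contrasts.

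Of the 16 genes of glucosinolate synthesis, 15 were under-expressed, all at least 2-fold, none was overexpressed, and the median was −2.43. *CYP79F1*, which starts the core pathway of methionine-derived glucosinolates, had 75.7 and 97.1 CPM in WT and no count in either *ss3/4* library, at least 248-fold lower. *MYB29*, a regulator of this branch, had 0.29 and 0.153 CPM against 13.7 and 17.2 CPM (−5.95, SE 0.41). Its relative *MYB28* fell from 63.3 and 62.5 CPM to 25.5 and 16.2 CPM (−1.57, SE 0.15). The tryptophan branch was lower as well, with *CYP79B2* at 10.4 and 8.09 CPM against 50.9 and 63.5 CPM (−2.62, SE 0.18) and *CYP79B3* at −2.24 (SE 0.16). *FMO GS-OX3* and *AOP2*, which modify the side chain, had 1 and 0 counts each in *ss3/4*. Their ratios, WT over *ss3/4*, were 416 and 231, with 95% counting intervals of 74.2 to 16447 and 41.1 to 9168.

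All 13 cell cycle genes were under-expressed, with a median of −1.77. *PCNA1*, the sliding clamp of DNA replication, had 3.1 and 1.22 CPM in *ss3/4* and 19.3 and 19.4 CPM in WT (−3.05, SE 0.23). *TSO2*, a ribonucleotide reductase subunit, had 15.2 and 14.5 CPM against 78.4 and 113 CPM (−2.69, SE 0.16), and the replication helicase genes *MCM2* and *MCM5* fell by 2.37 (SE 0.14) and 2.23 (SE 0.15). Of the genes of mitosis, *CYCB1;1* fell by 1.74 (SE 0.21) and *AUR1* by 1.44 (SE 0.18). The only marker of the shoot meristem in the lists, *STM*, had 5.71 and 4.12 CPM against 2.86 and 2.67 CPM (0.85, SE 0.27), a call lost with DESeq2, without WT replicate 2, and without *ss3/4* replicate 1. Of 19 growth genes, 11 were under-expressed and 3 were overexpressed. The expansin *EXPA5* fell by 2.78 (SE 0.22) and *IAA29*, an auxin response gene, by 3.66 (SE 0.54). Of the 2 phytochrome-interacting factors called, *PIF4* fell by 1.40 (SE 0.15), while *PIL6* (PIF5) rose from 141 and 136 CPM to 266 and 291 CPM (1.00, SE 0.11).

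Nitrate assimilation was lower, with 10 of 17 genes under-expressed and 2 overexpressed. *NIA1*, a nitrate reductase, had 149 and 145 CPM in *ss3/4* and 749 and 597 CPM in WT (−2.20, SE 0.13), and *NIR1*, the nitrite reductase, had 69.2 and 73 CPM against 278 and 247 CPM (−1.89, SE 0.12). The other nitrate reductase, *NIA2*, had 2525 and 2976 CPM against 2718 and 2561 CPM and did not pass the test. The flavonoid list had 10 of 19 genes under-expressed and 2 overexpressed. *PAL1*, at the entry of the pathway, had 58 and 53.7 CPM against 226 and 290 CPM (−2.21, SE 0.16). *LDOX*, a late anthocyanin enzyme, had 0.194 and 0.611 CPM against 4.92 and 8.21 CPM (−4.17, SE 0.60). The anthocyanin repressor *MYBL2* rose by 1.78 (SE 0.16), and chalcone synthase, *TT4*, had 82.1 and 101 CPM against 93.4 and 92.3 CPM.

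Of 16 jasmonate genes tested, 5 were under-expressed and 2 were overexpressed, the first near the 28.1% of all genes. Those that fell included enzymes of synthesis. *LOX2* had 0.581 and 0.153 CPM in *ss3/4* and 10.4 and 18 CPM in WT (−5.08, SE 0.54), *AOC2* fell by 3.76 (SE 0.35), and *AOS* fell from 43.6 and 59.7 CPM to 9.68 and 7.17 CPM (−2.60, SE 0.19). In the list of salicylic acid and immunity, 6 of 18 genes (33.3%) were overexpressed and 4 (22.2%) were under-expressed, near the 30.4% and 28.1% of all genes. *CBP60G*, a factor that induces salicylic acid synthesis, had 14.9 and 24.3 CPM against 4.69 and 4.97 CPM (1.98, SE 0.37). *NPR1*, the salicylic acid receptor gene, rose by 0.77 (SE 0.11), while *PAD3*, for the last step of camalexin synthesis, had 0 and 0.611 CPM against 4.47 and 6.97 CPM (−4.50, SE 0.64).

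In the list of abscisic acid and cold, 11 of 24 genes were overexpressed and 4 were under-expressed. *RAB18*, a dehydrin, had 45.3 and 33.6 CPM in *ss3/4* and 1.72 and 1.53 CPM in WT (4.60, SE 0.48). *HB-12*, a homeobox factor, had 143 and 146 CPM against 26.2 and 27.3 CPM (2.43, SE 0.13), and *HAB1*, a phosphatase that represses abscisic acid signalling, rose by 1.54 (SE 0.12). Of the 4 that fell, *KIN1*, a cold-induced gene, had 1.26 and 1.53 CPM against 8.7 and 7.16 CPM (−2.53, SE 0.56). Of 23 genes of photoprotection and reactive oxygen, 12 were overexpressed and 3 were under-expressed. *CAT3*, a catalase, had 1538 and 1873 CPM against 375 and 310 CPM (2.32, SE 0.14), and *NPQ1*, the violaxanthin de-epoxidase, rose by 1.39 (SE 0.11). Among the 3 iron superoxide dismutase genes, *FSD2* and *FSD3* fell by 0.99 and 1.13, and *FSD1* rose by 1.25 (SE 0.23).

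Few nuclear photosynthesis genes were called against WT, although the list held a smaller share of nuclear TPM in *ss3/4*. The share was 5.43% and 6.52% in *ss3/4* and 7.5% and 7.68% in WT, and why TPM and counts differ here was not tested. Of 28 tested, none was overexpressed and 5 were under-expressed, with a median of 0.01. With 1 library left out the counts ran from 0 to 3 and from 2 to 5. *CAB3* had 916 and 976 CPM in *ss3/4* and 2509 and 2524 CPM in WT (−1.41, SE 0.23), but its neighbours *CAB1* and *CAB2* are near-identical copies, and the split of reads between them is uncertain. *PSAD-1*, of photosystem I, had 526 and 623 CPM against 866 and 935 CPM (−0.65, SE 0.14). The fall of *LHCB3* by 0.75 (SE 0.21) lost significance without *ss3/4* replicate 1 (adjusted p = 0.0511). Phosphate starvation genes were called at 5 of 19 in each direction, near the shares of all genes. *SPX1*, a phosphate sensor gene, rose by 1.39 (SE 0.21), while *MGD2*, for galactolipid synthesis, fell by 2.04 (SE 0.42).

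Heat shock genes, the subject of the study, were low in both genotypes. Of 26 tested, 6 were overexpressed and 5 were under-expressed (4 to 6 and 2 to 4 with 1 library left out), with a median of 0.03, and 0 with genes of at most 3 counts set at their bound. *HSP70* had 5.71 and 5.5 CPM in *ss3/4* and 9.39 and 9.07 CPM in WT (−0.72, SE 0.24, adjusted p = 0.0162), a call lost when any 1 of the 4 libraries was left out, with adjusted p up to 0.0922. *HSP101* had 5.32 and 4.88 CPM against 11.1 and 10.5 CPM (−1.08, SE 0.23, adjusted p = 0.000488). *HSP90.1* had 4.26 and 3.66 CPM against 5.61 and 4.3 CPM and did not pass the test (adjusted p = 0.57). *GolS1*, a galactinol synthase, and the heat shock factor *HSFA7A* rose by 1.45 (SE 0.17) and 1.20 (SE 0.16).

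Among 38 genes whose reference description names a heat shock protein, 23 were under-expressed and 6 were overexpressed. *HSP60-2*, of the mitochondrial chaperonin, had 9.58 and 9.01 CPM in *ss3/4* and 61.1 and 62 CPM in WT (−2.73, SE 0.15). The cytosolic *HSP70* relative *AT3G09440* had 30.8 and 32.8 CPM against 144 and 154 CPM (−2.24, SE 0.13). The mitochondrial *mtHsc70-1* and the plastid *cpHsc70-2* fell by 1.43 (SE 0.09) and 1.42 (SE 0.10).

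The effect of the genotype was then compared between ZT0 and ZT2 by an interaction term. Of all genes, 1882 (9.35%) had a higher effect at ZT2 and 2592 (12.9%) a lower one, the latter 1657 without WT replicate 1 of ZT0. In the heat shock list, 17 of 26 had a higher effect at ZT2 and none a lower one, and the median fold change at ZT2 was 3.86. *HSP70* then had 641 and 663 CPM in *ss3/4* and 81.6 and 133 CPM in WT, a change in effect of 3.31 (SE 0.28). In the sugar starvation list, 22 of 29 genes had a lower effect at ZT2 and none a higher one, and the median fell to 1.09. *ERD5* was down to 156 and 161 CPM in *ss3/4*, close to the 109 and 138 CPM of WT, and *BCAT-2* was still at 80.4 and 76.5 CPM against 8.22 and 6.61 CPM. In the iron list, 4 of 16 genes had a higher effect at ZT2 and 1 a lower one. *OPT3* had 559 and 561 CPM at ZT2 against 697 and 569 CPM in WT, while *IRT1* stayed at 2.79 and 3.18 CPM against 568 and 474 CPM.

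**Figure D4:**
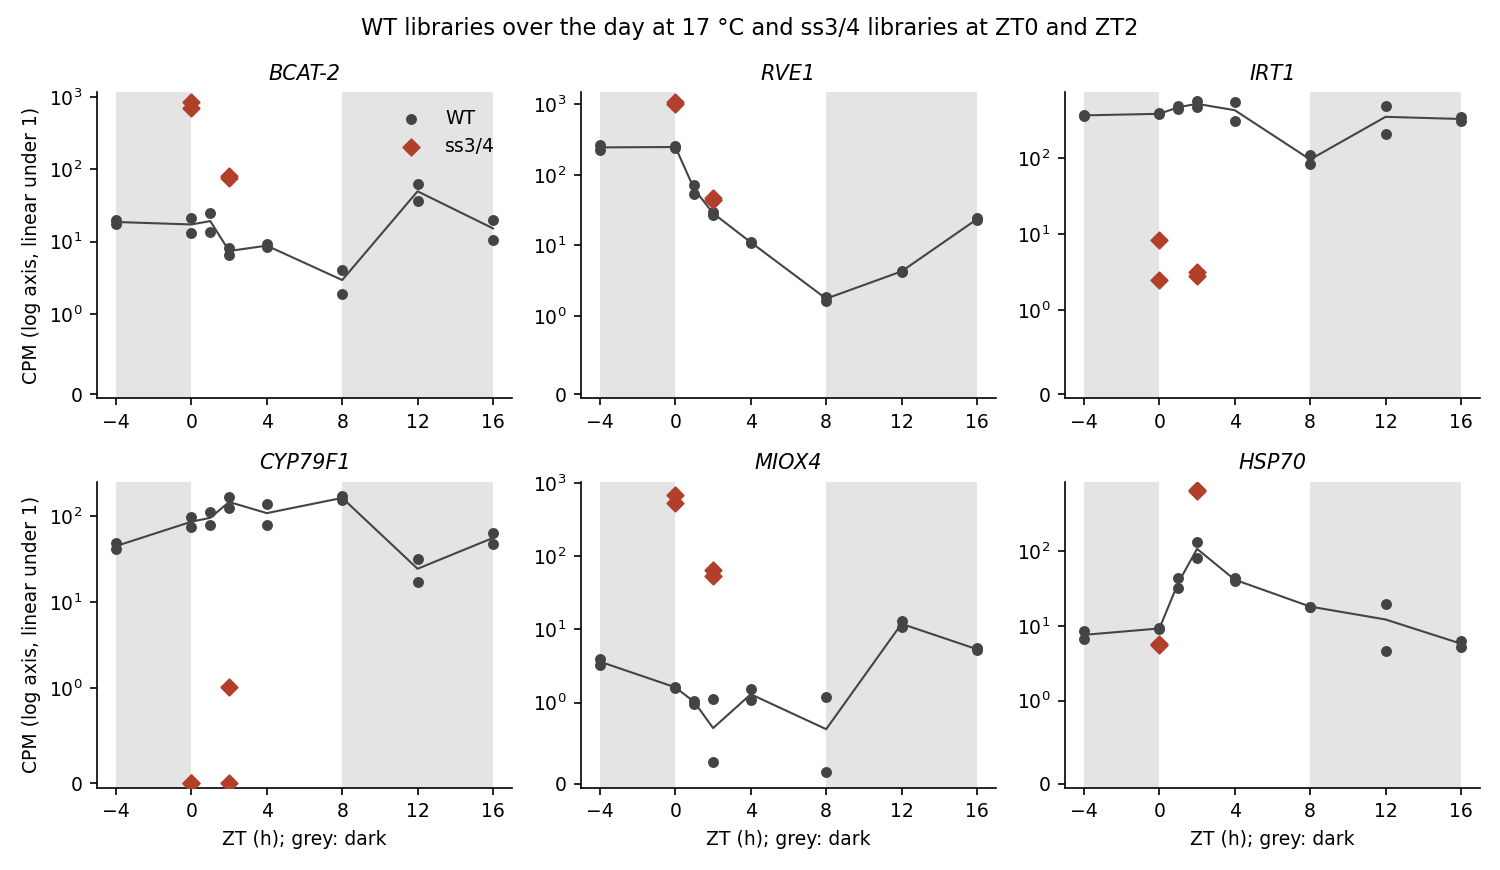
CPM of 6 genes in WT at 8 time points from ZT−4 to ZT16 and in *ss3/4* at ZT0 and ZT2, at 17°C, with 1 point per library and the dark hours in grey. *BCAT-2* and *RVE1* in *ss3/4* at ZT0 exceed every WT library, *IRT1* is below every WT library at both times, and *HSP70* is at 641 and 663 CPM in *ss3/4* at ZT2.

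The levels of *ss3/4* were then set beside those of the other mutants. Against WT, 57% of genes were called in *pgm* and 61.3% in *ss3/4/pgm*, beside 58.5% in *ss3/4*. These 3 contrasts, from which the medians below come too, share the WT libraries and are not independent. Of the genes overexpressed in *ss3/4*, 73.6% passed the test against neither line, and of those under-expressed, 76.9%. Over all genes, 13.1% passed it against *pgm* and 18.4% against *ss3/4/pgm*. The share of all genes passing against neither was not counted, and a gene that did not pass may still differ. Median fold changes of *pgm* against WT were −1.39 for cell cycle, 1.25 for *ATG8*, 0.80 for clock, −0.60 for starch synthesis, and −0.61 for nitrate genes. The medians of iron (−1.07) and nuclear photosynthesis genes (0.79) were farther from those of *ss3/4*. Few genes differed between the *ss4-1* and WT libraries at ZT0. Library kit and sequencing centre, not assigned in the labels, cannot be told apart from genotype here either. In *ss4-1* against WT, 31 genes (0.153% of 20219) were called, while *ss3/4* against *ss4-1* gave 5876 genes overexpressed (29.1%) and 5317 under-expressed (26.3%). Against *pgm*, 1405 genes (6.98%) were higher and 1236 (6.14%) lower in *ss3/4*. With DESeq2 size factors in the same test the counts were 1140 and 1529, and without *pgm* replicate 2, the shallowest library with 3204754 counts, of which 3.05% were from organelles, they were 572 and 597. Without *pgm* replicate 1 they were 509 and 549. A difference of at least 2-fold from *pgm* was found for 320 higher (1.59%) and 226 lower genes (1.12%). Against *ss3/4/pgm*, 1956 genes (9.72%) were higher and 1746 (8.67%) lower, and without replicate 1 of that line the counts were 946 and 780. Without *ss3/4* replicate 1 the count of lower genes was 1130. A difference of at least 2-fold from *ss3/4/pgm* was found for 402 higher (2%) and 315 lower genes (1.56%). The contrasts of *ss3/4* against *ss4-1*, *pgm*, and *ss3/4/pgm* share the *ss3/4* libraries, so they are not independent.

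Sugar starvation genes such as *BCAT-2* were high in all 3 lines. Of the 29, 10 were lower in *ss3/4* than in *pgm* and 2 were higher, and the same counts were found against *ss3/4/pgm*. The count lower than in *pgm* was 5 without *pgm* replicate 2 or without *ss3/4* replicate 1, and the count lower than in *ss3/4/pgm* was 4 without replicate 1 of that line and 5 without *ss3/4* replicate 1. *ERD5* had 2380 and 3078 CPM in *ss3/4*, 4496 and 4732 CPM in *pgm*, and 4288 and 3988 CPM in *ss3/4/pgm*. *GDH2* had 706 and 881 CPM against 1360 and 1476 CPM in *pgm* (−0.83, adjusted p = 0.00166). In the other direction, *DIN2*, a β-glucosidase, had 107 and 131 CPM in *ss3/4* against 54 and 51.7 CPM in *pgm* (1.17, adjusted p = 0.00285), and *ATG8B* was above *pgm* by 0.94. *BCAT-2* and *ASN1* did not pass the test against either line.

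Iron genes were lower in *ss3/4* than in the other starch mutants. Of 16, 10 were lower than in *pgm* and 1 was higher, against 6.14% and 6.98% of all genes, and 12 were lower than in *ss3/4/pgm* and 1 was higher. Without *pgm* replicate 1 the count lower than in *pgm* was 5, and without *pgm* replicate 2 it was 8. *IRT1*, at 8.42 and 2.44 CPM in *ss3/4*, had 212 and 121 CPM in *pgm* and 188 and 107 CPM in *ss3/4/pgm* (−4.83 and −4.59, adjusted p = 1.7e-07 and 2.2e-07). *FRO2* had 115 and 30.8 CPM in *pgm* and 134 and 44 CPM in *ss3/4/pgm*, with replicate 2 the lower in each. Every one of these libraries lay between *ss3/4* and WT. *FER4* was the 1 gene higher in *ss3/4* (0.94 against *pgm*), and *FER1*, with 283 and 214 CPM in *pgm*, did not pass the test. Outside the list, *MTPA2*, a vacuolar metal transporter, had 4.84 and 4.43 CPM in *ss3/4*, 38.3 and 23.9 CPM in *pgm*, and 54.2 and 62.7 CPM in WT.

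Glucosinolate genes ran the other way. Of the 16, 5 were higher in *ss3/4* than in *pgm* and none was lower, and 8 were higher than in *ss3/4/pgm*. Without *pgm* replicate 2 or without *ss3/4* replicate 1, 1 gene was higher than in *pgm*, and without *pgm* replicate 1 it was 3. Against *ss3/4/pgm* the count was 4 without *ss3/4* replicate 1 or without *ss3/4/pgm* replicate 2. *CYP83B1* had 41.7 and 40.9 CPM in *ss3/4*, 19.1 and 16.2 CPM in *pgm*, and 110 and 112 CPM in WT. Of the 28 nuclear photosynthesis genes, 22 were lower than in *pgm* and 1 was higher, *GPRI1* (GLK1). The count of lower genes was 4 without *pgm* replicate 2 and 8 without *ss3/4* replicate 1. Against *ss3/4/pgm*, 6 were lower, 1 without *ss3/4* replicate 1, and 0 without *ss3/4/pgm* replicate 1. *LHCB4.2* had 1282 and 1318 CPM in *ss3/4* and 2219 and 2935 CPM in *pgm*, with *pgm* replicate 2 the higher. *RBCS1A*, for the small subunit of Rubisco, had 4586 and 6105 CPM against 8121 and 14212 CPM.

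A naming rule took genes called in 1 direction against WT, *pgm*, and *ss3/4/pgm*. Of 20130 genes tested, 499 were higher in all 3 (8.16% of the 6117 higher against WT) and 353 lower (6.25% of the 5651 lower). Over all genes, 6.98% were higher and 6.14% lower against *pgm*, and 9.72% higher and 8.67% lower against *ss3/4/pgm*. The share of all genes called against both lines was not counted. All 3 contrasts share the *ss3/4* libraries, so a joint count is not independent support. These joint counts were not repeated with a library left out. *MIOX4* was one of them, with 295 and 257 CPM in *pgm* and 244 and 258 CPM in *ss3/4/pgm* beside the 529 and 680 CPM of *ss3/4*. *AGT3*, an aminotransferase that acts on glyoxylate, had 880 and 922 CPM in *ss3/4*, 577 and 524 CPM in *pgm*, and 50.6 and 41.8 CPM in WT. *THA1*, the threonine aldolase, had 352 and 350 CPM, against 272 and 237 CPM in *pgm* and 22 and 15.9 CPM in WT. *EPR1*, a MYB factor of the clock family, and *COL9*, a B-box factor, were above WT by 3.19 (SE 0.13) and 2.83 (SE 0.15) and above *pgm* by 0.44 and 0.46. *Cpn60beta2*, a subunit of the plastid chaperonin, had 29 and 29.3 CPM, against 52.3 and 51.7 CPM in *pgm* and 183 and 179 CPM in WT. For these genes *ss3/4* lay on 1 side of WT and of both other lines, as the rule requires.

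Several immune genes were higher in *ss3/4* than in the other mutants. Of 18, 5 were higher than in *pgm* and 1 was lower, and 4 were higher than in *ss3/4/pgm* and 1 was lower. Without *pgm* replicate 1 none was called in either direction against *pgm*, without *pgm* replicate 2 or without *ss3/4* replicate 2 the count of higher genes was 2, and with DESeq2 size factors it was 3. *CBP60G* was at 5.86 and 4.27 CPM in *pgm* and 5.19 and 5.5 CPM in *ss3/4/pgm*, at the WT level, beside 14.9 and 24.3 CPM in *ss3/4*. *ACD6*, an ankyrin protein of defence, had 16.3 and 40.1 CPM in *ss3/4*, 8.5 and 7.26 CPM in *pgm*, and 11.1 and 9.26 CPM in WT. *CML41* and *AIG1*, which are not in the list and were described among the largest rises, had at most 0.567 CPM in every *pgm* and *ss3/4/pgm* library. *DMR6*, which removes salicylic acid, had 114 and 138 CPM in *ss3/4*, 83.5 and 82.9 CPM in *pgm*, and 23.8 and 24.4 CPM in WT. *CBP60G*, *ACD6*, *CML41*, and *AIG1* were all higher in *ss3/4* replicate 2 than in replicate 1. *SWEET12*, a sucrose exporter of leaf veins, had 50.5 and 43.2 CPM in *ss3/4* and 14.4 to 18.7 CPM in the *pgm* and *ss3/4/pgm* libraries (1.55 and 1.53 higher), although WT reached 66.8 CPM at ZT12.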

How the data were processed

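RNA was sequenced from pooled seedlings. The authors deposited raw counts per gene and, beside them, TPM values for the same libraries. The submitters' processing notes name FastQC, Trimmomatic, TopHat, Picard, and TAIR10, without versions. The labels name both a stranded and an unstranded kit, so reads of overlapping genes on opposite strands may not be separable. No column of the authors' own comparisons was used, and 0 columns were of other samples.

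Deposited counts were analysed in R 4.3.3 with edgeR 4.0.16 (filterByExpr, TMM, quasi-likelihood test), in 1 fit of 16 libraries in 8 groups of 2. Low-count genes were filtered by group, leaving 20130 genes. A fit of 20 libraries added *ss4-1*. The Benjamini-Hochberg adjustment ran over every gene tested, and DESeq2 1.42.0 was the alternative. TPM deposited by the authors were used only to rank genes within libraries and for shares of lists. They are listed at 0 in 99 genes with 10 or more counts. These genes, those of the organelles, and those for ribosomal RNA were left out of ranks and of the total used for shares. On simulated counts for 20045 genes, 98% of 100 genes changed 2-fold and 99% of 100 changed 4-fold were recovered, and 11 unchanged genes were called. Every simulated gene had the same biological coefficient of variation, 0.09, and the changed genes were few and drawn from those with higher counts. In the data 58.5% of genes were called and the spread was unequal, so these figures do not carry over to genes with few counts. Replicate counts differed beyond sampling noise, with a chi-square per degree of freedom of 3.11 in WT and 10.8 in *ss3/4*, so none was counted as a repeat. Counting intervals are exact binomial at 95% and cover counting error only, and a fold against 0 uses a floor of 3 counts per library.

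The comparisons, members, and the 25 lists (20 pathway and 5 marker lists, 413 genes, 424 of 448 entries matched by name) were chosen with earlier results of these data known. Lists by reference description were added for heat shock and ribosomal proteins, and by chromosome for organelles. The rule for named genes took *SS3*, *SS4*, *PGM*, and 3 *HSP* genes, the 12 largest rises and 12 largest falls with at least 5 CPM in the higher group and both libraries on 1 side of WT, up to 4 members per list by smallest p, and up to 10 genes called in 1 direction in all 3 contrasts. Genes named besides these were chosen after their values were seen. Alternatives were DESeq2, its size factors, no or another count filter, only the compared groups, organelle genes left out, the replicate number as a block, and each library left out in turn.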

Additional observations from a re-analysis of the deposited data

Results flagged for a closer look

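For 5 of the genes named by rule, *ss3/4* differed from WT in opposite directions at ZT0 and ZT2, with both differences and the change between them past the test (edgeR's quasi-likelihood test, interaction term, 2 libraries per group). Over all genes 448 (2.23%) did so, of which 253 were higher at ZT0 and lower at ZT2 and 195 the reverse.

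*NIA1* had the largest change of the 5. It was lower in *ss3/4* than in WT at ZT0 and higher at ZT2, with 351 and 362 CPM against 81.8 and 81.9 CPM, a change in effect of 4.311 (adjusted p = 7.37e-11). *HSP101* had 287 and 288 CPM at ZT2 against 28.6 and 45.8 CPM in WT, a change of 3.993 (adjusted p = 1.19e-08). *ATERDJ3A*, a DnaJ protein of the endoplasmic reticulum, went from 1.65 and 1.53 CPM against 3.55 and 8.02 CPM at ZT0 to 43.9 CPM in both *ss3/4* libraries against 10.5 and 14.7 CPM at ZT2, a change of 3.653 (adjusted p = 5.78e-06). *HSP70* changed by 3.308 (adjusted p = 1.76e-07), although its fall at ZT0 rests on all 4 libraries. *RD22*, a dehydration-responsive gene, had 54.5 and 42.4 CPM against 124 and 144 CPM at ZT0 and 266 and 234 CPM in WT against 342 and 423 CPM in *ss3/4* at ZT2, a change of 2.066 (adjusted p = 5.67e-07).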

How the results depend on the processing

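No named gene that was called changed direction under any alternative. A minimum of 2-fold, chosen after seeing the data, left 2113 higher and 2745 lower genes in *ss3/4* against WT, 1741 and 2402 against *ss4-1*, 320 and 226 against *pgm*, 402 and 315 against *ss3/4/pgm*, and 924 and 717 for the change in effect at ZT2. DESeq2 gave 777 higher genes against *pgm*, 1220 against *ss3/4/pgm*, and 1608 with a lower effect at ZT2. Its size factors moved the share of higher calls against *pgm* from 53.2% to 42.7%, and DESeq2 itself to 38.9%. They moved it from 52.8% to 48.2% (47.8% with DESeq2) against *ss3/4/pgm* and from 42.1% to 50.4% for the change in effect, where the minimum of 2-fold gave 56.3%. With only the compared groups fitted, 846 genes were higher against *pgm*, and 1198 were higher and 1065 lower against *ss3/4/pgm*. The cause of these shifts was not tested. With 1 library left out, the counts ran from 5249 to 5654 higher and 4685 to 5030 lower against WT, 4776 to 5299 and 4105 to 4645 against *ss4-1*, 509 to 1149 and 549 to 875 against *pgm*, 946 to 1438 and 780 to 1279 against *ss3/4/pgm*, and 1351 to 1771 and 1657 to 2400 for the change in effect. Replicate numbers were tried as a replicate block although nothing in the labels pairs them. The block gave 6121 higher and 5651 lower genes against WT (5459 and 5428 with only the 4 libraries), 5921 and 5332 against *ss4-1*, 1407 and 1238 against *pgm*, 1947 and 1738 against *ss3/4/pgm*, and 1865 and 2561 for the change in effect. Deviations of WT and *ss3/4* libraries of the same number correlated at −0.131, and the crossed pairing, added after seeing the data, gave 6161 and 5980. Of 134 named genes, 132 were called, 123 of these under every alternative, and 19 of 1672 values lost the call. These were of *EXPA7*, *AT1G21525*, *PER1*, *STM*, *PETE1*, *HSP70*, *SCR*, *PGM*, and *LHCB3*. Depth limits genes with few counts, such as *PER1* and *BHLH100*.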

Other observations

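Genes of the organelles, ribosomes, and minor cell types were read at ZT0 as well. Of 130 chloroplast genes tested, 24 were lower in *ss3/4* than in WT and none was higher, but 7 were lower and 5 higher without *ss3/4* replicate 1, and 52 were lower without *ss3/4* replicate 2. Of 35 mitochondrial genes none was called in either direction, and 11 were higher without *ss3/4* replicate 1. The share of counts from the chloroplast differed between the *ss3/4* replicates by the values given above, and its part in these calls was not tested. Among 16 genes whose description names a 40S or 60S ribosomal protein, 5 were higher (31.25%) and 3 lower (18.75%), beside 30.4% and 28.1% of all genes. *RPL18AA* had 118 and 104 CPM in *ss3/4* against 31.8 and 30.8 CPM in WT, and *EMB2788* had 7.84 and 8.4 CPM against 25.9 and 22.7 CPM. Of 3 genes of guard cells and their lineage, *SPCH*, which starts the lineage, was lower and the others did not pass the test.

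Genes were also ranked by TPM. Of the 20 nuclear genes highest in WT, 12 were also among the 20 highest in *ss3/4*, and of the top 100 the shared number was 73. *CAB3* moved from rank 5 to 82 and *LHCB3* from 13 to 64. *ASN1* moved from rank 4130 to 44, *MIOX4* from 18997 to 380, and *IRT1* from 323 to 14020. The iron list held 0.164% and 0.191% of the TPM of the nuclear genes ranked in WT and 0.0592% and 0.0667% in *ss3/4*. The glucosinolate list held 0.085% and 0.103% against 0.0215% and 0.0154%.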
